A study of Mus musculus with 4 samples.

Results

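Genes whose symbol starts with Kmt, Kdm, Setd or Nsd followed by a letter or digit, most of which encode lysine methyltransferases and demethylases, were followed in wild-type C57BL/6 pro-B cells, a bone marrow population sorted for B220 and c-Kit. The symbol rule left out Kdm5c, Kdm5d and Kdm6a and took 42 of the 34760 probe sets of the deposited table, standing for 37 of 19937 genes with a probe set of a single symbol. All 4 samples, hybridized 1 per Affymetrix Mouse Gene 1.0 ST array, belong to 1 group with no treatment or transgene, so no comparison between groups was possible. Whether separate mice gave the replicates is not stated in the labels. One of the 37 genes, Nsdhl, encodes a sterol dehydrogenase of cholesterol synthesis and not a lysine methyltransferase, and it is set apart below. The role groups of the other genes are names of lists, and the enzyme activity of their proteins was not measured.

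Lysine methyltransferases place methyl groups on histone tails, and lysine demethylases take them off. The methyltransferases described here carry a SET domain, while the demethylases are either flavin-dependent amine oxidases of the LSD type or JmjC-domain oxygenases that need iron and oxoglutarate. The residue and the degree of methylation matter: H3K4 methylation marks promoters and enhancers, H3K36 methylation marks transcribed gene bodies, and H3K9, H4K20 and H3K27 methylation are known from silenced chromatin. In B-cell precursors these marks are known to accompany the opening of immunoglobulin loci for recombination, and several of the enzymes are mutated or translocated in leukaemia and lymphoma.

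Values are log2 intensities, and the level of one probe set was not compared with that of another. Each array's background line was set from 1246 probe sets of sensory receptor genes (olfactory, vomeronasal and taste), at their 95th percentile. In the order of replicates 1 to 4 the lines were 6.53, 6.62, 6.54 and 6.59. Of the 37 genes, 36 exceeded it on all 4 arrays, where 63.5% of all genes did. Without Nsdhl the count was 35 of 36. Pearson's r between pairs of arrays was 0.986 to 0.989 across probe sets, which are not independent replicates. The array of replicate 3 stood apart in Xist, the RNA of the inactive X chromosome, with a value of 5.48 against 13.17, 13.04 and 13.05 on the arrays of replicates 1, 2 and 4. Its RNA thus came from a different animal, while among the arrays of replicates 1, 2 and 4 technical and biological spread cannot be told apart from the labels.

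The label of pro-B cells was checked against marker lists. All 11 early B-cell markers with a probe set and 7 of 7 markers of pre-B and immature B cells exceeded the line, and so did 9 of 9 erythroid and 12 of 12 granulocyte and monocyte markers. Of the T-cell and NK-cell markers 6 of 7 did, where 63.5% of all genes did. The summed level of the early B-cell markers (log2 of the summed intensities) was 15.19, 14.44, 14.66 and 14.08 on the arrays of replicates 1 to 4. That of the erythroid markers was 13.48, 14.56, 14.40 and 14.35. For the granulocyte and monocyte markers it was 15.96, 15.90, 16.18 and 16.19, above the early B-cell sum on every array. For the T-cell and NK-cell markers it was 10.65, 10.20, 10.30 and 10.16. The lists hold different probe sets, so these sums do not give shares of cells, and the purity of the samples was not tested. In sorted bulk samples fewer cells of a type cannot be told apart from less RNA per cell.

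**Figure D1:**
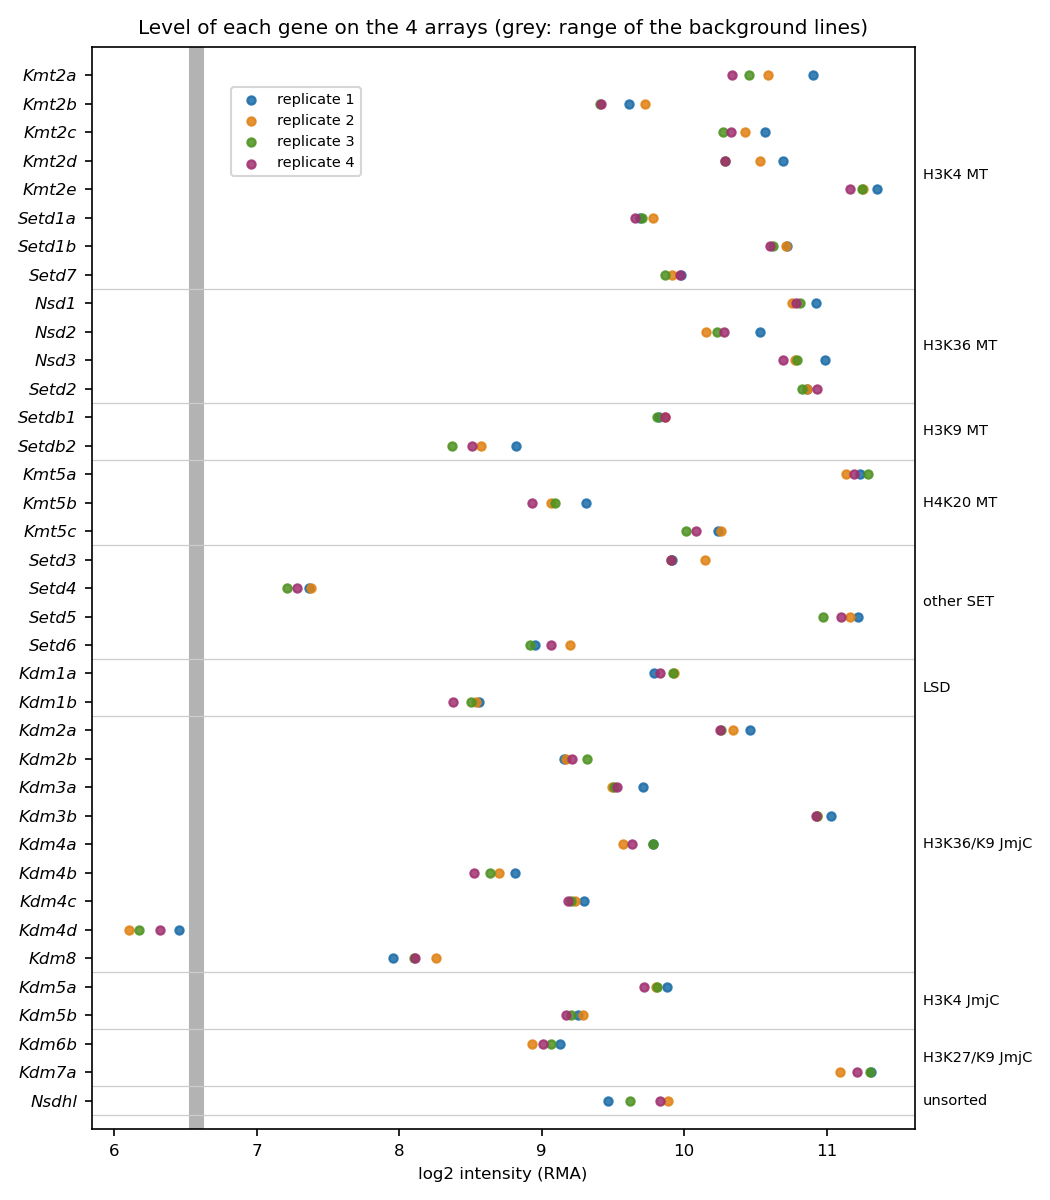
Log2 intensity (horizontal axis) of the 37 genes (rows, grouped by role; MT, methyltransferase) on the arrays of replicates 1 to 4 (coloured points); the grey band spans the background lines of the arrays. Kdm4d lies left of the band on every array and Setd4 closest to it on the right, and the points of most genes nearly coincide.

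Promoter windows of RefSeq (build GRCm38.p6), from 250 bases before to 50 after a transcript start, were matched for 26 of the 37 genes, in 36 windows. They held a median of 27.5 CpG dinucleotides (0 to 65), while the median over all 32851 windows of the table was 7. The GC box GGGCGG, searched on both strands, was in 69.4% of the member windows and in 35.7% of all windows. The motif CCGGAAG, searched on both strands, was in 16.7% against 8.9%, and TATAAA, also on both strands, in none of the 36 member windows against 13.6% of all. These are descriptions of letters in a window and not of factor binding. The windows of 5 genes are printed with the CpG dinucleotides in capitals: those of Kmt2a (chr9:44881240-44881539), Kmt2c (chr5:25498734-25499033) and Kmt2d (chr15:98871156-98871455), because these genes moved alike over the arrays, that of Setdb1 (chr3:95357153-95357452), because its spread was the smallest of the members, and that of Kdm4d (chr9:14500433-14500732), because it alone was below background. All lie on the minus strand and are written 5′ to 3′ in the direction of the gene.
Kmt2a: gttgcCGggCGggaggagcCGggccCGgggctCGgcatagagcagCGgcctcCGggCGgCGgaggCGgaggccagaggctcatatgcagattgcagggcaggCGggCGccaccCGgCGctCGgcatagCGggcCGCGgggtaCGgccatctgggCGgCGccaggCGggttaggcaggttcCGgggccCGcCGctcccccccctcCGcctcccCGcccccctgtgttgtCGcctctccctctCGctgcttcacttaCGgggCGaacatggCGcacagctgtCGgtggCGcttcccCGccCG
Kmt2c: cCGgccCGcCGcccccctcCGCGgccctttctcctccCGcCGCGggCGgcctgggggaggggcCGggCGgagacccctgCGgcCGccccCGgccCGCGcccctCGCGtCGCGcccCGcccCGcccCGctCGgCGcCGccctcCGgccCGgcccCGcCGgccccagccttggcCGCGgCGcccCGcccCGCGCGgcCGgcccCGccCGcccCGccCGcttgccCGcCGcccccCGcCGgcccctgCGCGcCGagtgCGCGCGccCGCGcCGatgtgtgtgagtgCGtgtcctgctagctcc
Kmt2d: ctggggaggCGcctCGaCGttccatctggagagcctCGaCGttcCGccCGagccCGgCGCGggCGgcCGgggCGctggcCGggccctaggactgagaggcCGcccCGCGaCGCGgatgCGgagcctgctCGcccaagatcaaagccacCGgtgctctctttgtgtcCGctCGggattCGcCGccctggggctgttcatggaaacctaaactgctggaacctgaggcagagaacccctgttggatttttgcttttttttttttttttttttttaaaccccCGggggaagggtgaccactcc
Setdb1: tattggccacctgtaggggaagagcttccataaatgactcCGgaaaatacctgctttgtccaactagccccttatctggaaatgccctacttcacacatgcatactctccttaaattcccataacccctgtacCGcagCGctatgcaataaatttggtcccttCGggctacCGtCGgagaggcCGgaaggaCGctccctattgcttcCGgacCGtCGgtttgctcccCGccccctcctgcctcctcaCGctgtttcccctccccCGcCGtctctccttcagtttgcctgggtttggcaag
Kdm4d: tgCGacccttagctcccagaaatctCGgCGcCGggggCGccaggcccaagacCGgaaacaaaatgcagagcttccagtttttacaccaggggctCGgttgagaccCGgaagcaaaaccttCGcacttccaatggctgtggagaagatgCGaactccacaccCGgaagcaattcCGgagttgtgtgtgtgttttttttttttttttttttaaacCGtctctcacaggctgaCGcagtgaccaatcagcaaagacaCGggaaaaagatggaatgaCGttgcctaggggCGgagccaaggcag
The windows held 36 CpG dinucleotides for Kmt2a, 56 for Kmt2c, 27 for Kmt2d, 15 for Setdb1 and 17 for Kdm4d. The GC box occurred 5 times in the window of Kmt2a, 12 times in that of Kmt2c, 4 times in that of Kmt2d and once in those of Setdb1 and Kdm4d. The gene below background thus held more CpG dinucleotides in its window than the steadiest gene above it.

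All 8 H3K4 methyltransferase genes were above background on every array, where 63.5% of all genes were. Kmt2a, which encodes the MLL1 enzyme that is rearranged in acute leukaemia, had log2 values of 10.90, 10.59, 10.45 and 10.33 on the arrays of replicates 1 to 4 (10.57 ± 0.24, SD, n = 4). This was the widest range of the members above background, 0.57 on the log2 scale, with replicate 1 at the top. Kmt2d, which encodes a methyltransferase of enhancers that is often mutated in lymphoma, had values of 10.70, 10.53, 10.29 and 10.29 (10.45 ± 0.20, SD, n = 4). Its other probe set read 8.04, 7.84, 7.73 and 7.69, so both probe sets were highest on the array of replicate 1, next highest on that of replicate 2 and lowest on that of replicate 4. Kmt2c, the close relative of Kmt2d, had values of 10.57, 10.42, 10.28 and 10.33 (10.40 ± 0.13, SD, n = 4). Kmt2b, the relative of Kmt2a, read 9.61, 9.73, 9.41 and 9.41 (9.54 ± 0.16, SD, n = 4), with replicate 2 and not replicate 1 at the top. In each of these genes the arrays of replicates 1 and 2 lay above those of replicates 3 and 4.

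The remaining H3K4 genes varied less. Kmt2e, whose protein carries a SET domain and a PHD finger that reads methylated H3K4, had an SD of 0.08 around 11.26 (n = 4). Setd1a and Setd1b, the catalytic subunits of the SET1 complexes that trimethylate H3K4 at promoters, had SDs of 0.05 around 9.71 and 0.06 around 10.66 (n = 4 each). The other probe set of Setd1b read 9.85, 9.81, 9.68 and 9.64, in the same order of arrays as the first, which read 10.72, 10.71, 10.62 and 10.60. Setd7, a monomethyltransferase of H3K4 and of non-histone proteins, had an SD of 0.05 around 9.93 (n = 4). On the array of replicate 3 all 8 H3K4 genes were below the mean of the other arrays, where 47.7% of all genes were. On those of replicates 1 and 2 there were 7 of 8 above it, with 52.2% and 49.8% of all genes.

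**Figure D2:**
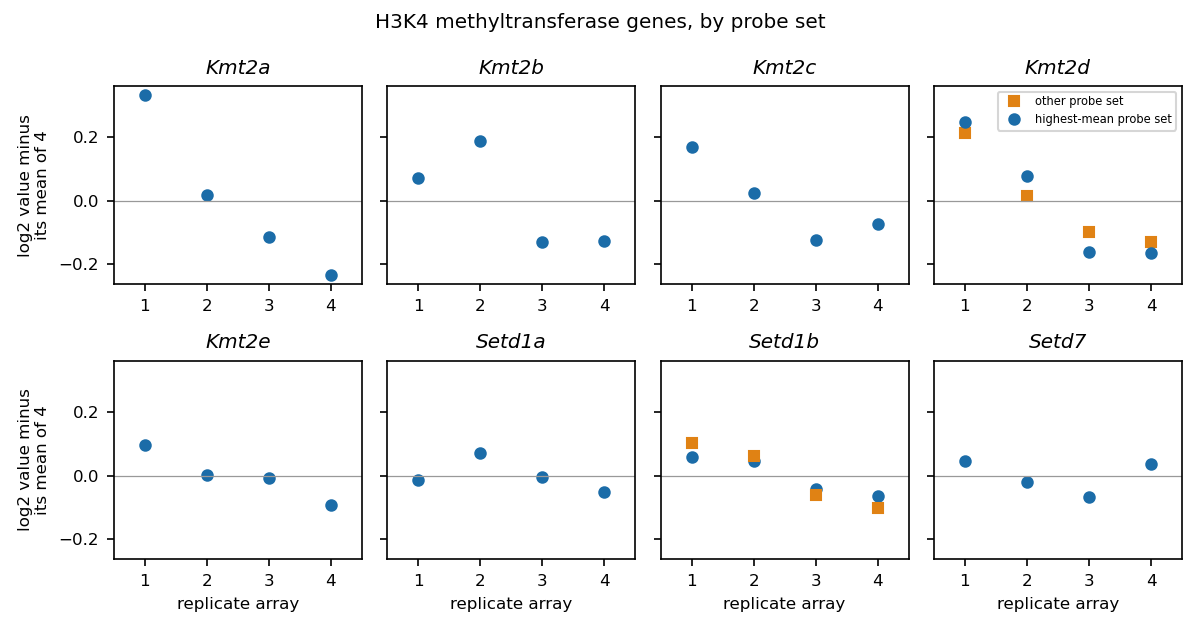
Log2 value minus the mean over the 4 arrays (vertical axis) of each H3K4 methyltransferase gene on the arrays of replicates 1 to 4 (horizontal axis), for the probe set used (circles) and any other (squares). Both probe sets of Kmt2d and both of Setd1b are highest on the array of replicate 1 and lowest on that of replicate 4.

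The 4 H3K36 methyltransferase genes were above background on every array, where 63.5% of all genes were. Nsd2, a dimethyltransferase of H3K36 that is translocated in multiple myeloma, had values of 10.53, 10.15, 10.23 and 10.28 (10.30 ± 0.16, SD, n = 4). Nsd3 read 10.99, 10.78, 10.79 and 10.70 (10.81 ± 0.12, SD, n = 4). In both the array of replicate 1 was the highest, as it was for Nsd1, which had an SD of 0.08 around 10.82 (n = 4). Setd2, which encodes the enzyme that trimethylates H3K36 in the wake of RNA polymerase II, had values of 10.86, 10.86, 10.82 and 10.93, and its array of replicate 4 was the highest. The other probe set of Setd2 read 10.75, 10.66, 10.67 and 10.67, with replicate 1 the highest. The 2 probe sets of Setd2 thus differed in the order of the arrays, within a range of 0.11 on the log2 scale.

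The H3K9 methyltransferase genes differed in spread. Setdb1, which encodes an enzyme that trimethylates H3K9 at retroelements, had values of 9.82, 9.86, 9.81 and 9.86 (9.84 ± 0.03, SD, n = 4). Setdb2 read 8.82, 8.57, 8.37 and 8.51 (8.57 ± 0.19, SD, n = 4), with replicate 1 the highest and replicate 3 the lowest. Of the H4K20 genes, Kmt5b and Kmt5c, which encode the enzymes of the higher methylation states, were the more variable. Kmt5b had values of 9.31, 9.06, 9.10 and 8.93 (9.10 ± 0.16, SD, n = 4). Kmt5c had values of 10.24, 10.26, 10.01 and 10.08 (10.15 ± 0.12, SD, n = 4). Kmt5a, the monomethyltransferase of H4K20 that acts in the cell cycle, had an SD of 0.07 around 11.21 (n = 4). The highest array was that of replicate 1 for Kmt5b, of replicate 2 for Kmt5c and of replicate 3 for Kmt5a.

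Among the other SET-domain genes, Setd3 encodes a methyltransferase of an actin histidine and Setd6 one of the NF-kB subunit RelA. Setd6 had values of 8.95, 9.20, 8.92 and 9.06 (9.03 ± 0.12, SD, n = 4). Setd3 read 9.91, 10.15, 9.91 and 9.91 (9.97 ± 0.12, SD, n = 4), and its other probe set read 9.40, 9.46, 9.35 and 9.33. The array of replicate 2 was the highest for both genes and for both probe sets of Setd3. Setd4 was the member above background that lay closest to the line, at 7.37, 7.38, 7.21 and 7.28, with a margin of 0.67 on its lowest array. With the array median as the line in place of the silent receptor genes, Setd4 no longer passed. Setd5 had an SD of 0.11 around 11.11 (n = 4). On the array of replicate 3 all 4 of these genes were below the mean of the other arrays, where 47.7% of all genes were.

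Demethylase genes were above background in 14 of 15 cases, where 63.5% of all genes were. Kdm1a, which encodes LSD1, the demethylase of mono- and dimethylated H3K4 in CoREST complexes, had values of 9.79, 9.93, 9.92 and 9.83 (9.87 ± 0.07, SD, n = 4). Kdm1b, its relative LSD2, read 8.56, 8.54, 8.50 and 8.38 (8.50 ± 0.08, SD, n = 4). Kdm1a was lowest on the array of replicate 1 and Kdm1b highest there. Kdm5a and Kdm5b, JmjC demethylases of di- and trimethylated H3K4, were steady. Kdm5a had values of 9.88, 9.80, 9.81 and 9.72 (9.80 ± 0.07, SD, n = 4). Kdm5b had values of 9.26, 9.29, 9.21 and 9.17 (9.23 ± 0.05, SD, n = 4). Both were lowest on the array of replicate 4.

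Kdm6b, which encodes the H3K27 demethylase JMJD3, had values of 9.13, 8.93, 9.06 and 9.01 (9.03 ± 0.08, SD, n = 4). Kdm7a, a demethylase of H3K9 and H3K27, read 11.31, 11.09, 11.31 and 11.21 (11.23 ± 0.10, SD, n = 4), and its other probe set 10.21, 9.89, 10.05 and 10.10. Both genes were highest on the array of replicate 1 and lowest on that of replicate 2. For Kdm7a both probe sets had these extremes.

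In the group of JmjC demethylases of H3K36 and H3K9, Kdm8 and Kdm4b had the largest spread among the genes above background. Kdm8 had values of 7.96, 8.26, 8.10 and 8.11 (8.11 ± 0.12, SD, n = 4). Kdm4b, a demethylase of trimethylated H3K9 and H3K36, had values of 8.81, 8.70, 8.64 and 8.52 (8.67 ± 0.12, SD, n = 4). Kdm8 was lowest and Kdm4b highest on the array of replicate 1. The SDs of Kdm2a and Kdm2b, H3K36 demethylases that bind unmethylated CpG, were 0.10 around 10.33 and 0.08 around 9.21 (n = 4 each). Those of Kdm3a and Kdm3b, demethylases of mono- and dimethylated H3K9, were 0.10 around 9.56 and 0.05 around 10.96 (n = 4 each). Kdm3b read 11.03 on the array of replicate 1, against 10.94, 10.93 and 10.92 on the others. Kdm4a and Kdm4c, relatives of Kdm4b, had SDs of 0.11 around 9.69 and 0.05 around 9.23 (n = 4 each). Kdm4d, known for its expression in the testis, was the only member below the line, at 6.46, 6.10, 6.17 and 6.32 against lines of 6.53, 6.62, 6.54 and 6.59. It was below the line on all 4 arrays and under each alternative rule for the line.

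Nsdhl had values of 9.47, 9.88, 9.62 and 9.83 (9.70 ± 0.19, SD, n = 4). It was lowest on the array of replicate 1, where its shift from the mean of the other arrays was -0.31 on the log2 scale, against 0.45 for Kmt2a.

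The spread of the members between arrays was near that of all genes. The median SD of the 36 genes above background was 0.099 on the log2 scale, with values of 0.027 to 0.24, and the median over all 12658 genes above background was 0.114. It was 0.117 for the 21 SET-domain genes and 0.082 for the 14 demethylase genes. These medians were not matched for level. The range over the 4 arrays was under 0.5 for 35 of 36 members, the exception being Kmt2a, and for 88.5% of all genes. The variance of each gene was set against the prior variance that limma fits along the mean level. It was under that prior for 23 of 36 members and for 53.6% of all genes. By class, this held for 13 of 14 demethylase genes and for 10 of 21 SET-domain genes, and the difference between the classes was not tested. None of Kmt2a, Kmt2b, Kmt2c and Kmt2d was under it. In limma's one-sided F test with Benjamini-Hochberg adjustment 0 of 36 members were called, and 0% of all genes were. At an unadjusted p under 0.05 it was 0 of 36 members and 5.19% of all genes. Dixon's ratio set 1 array apart for 2 of 36 members, Kdm3b and Setd3, and for 5.39% of all genes. The smallest unadjusted p among the members was 0.060 for Kmt2a in limma's F test. The adjusted test was too weak to be informative here: even Thbs1, with the smallest p of all genes, had an adjusted p of 0.410 in limma's F test.

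**Figure D3:**
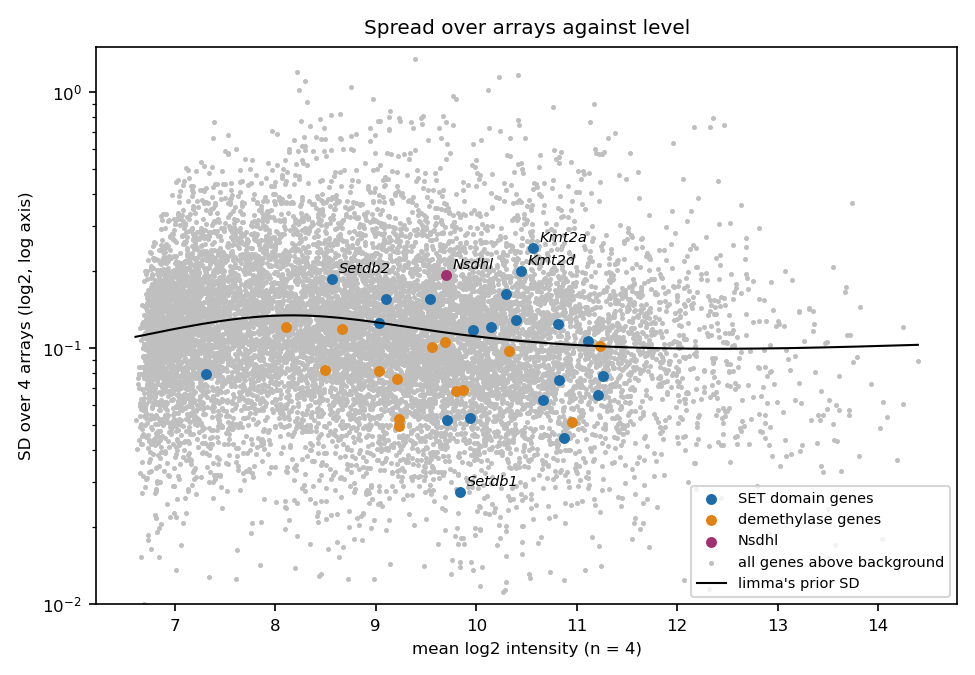
SD over the 4 arrays (vertical log axis, log2 units) against mean log2 intensity (horizontal axis) for SET-domain genes, demethylase genes and Nsdhl (coloured) and for all 12658 genes above background (grey); the line is limma's prior SD. Kmt2a, Kmt2d, Nsdhl and Setdb2 lie above the line and 13 of 14 demethylase genes below it.

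Many of the small shifts ran the same way. On the array of replicate 1, 27 of 36 members were above the mean of the other arrays, and their shifts had a median of 0.10 (log2), where 52.2% of all genes were and the median shift of all genes was 0.01. It was the highest of the 4 arrays for 22 of 36 members and for 33.2% of all genes. Replicate 2 had 22 of 36 members above the mean of the others (median shift 0.02), with 49.8% of all genes. Replicate 3 had 28 of 36 below it (median shift -0.04), with 47.7% of all genes, and replicate 4 had 30 of 36 below it (median shift -0.07), with 54.5% of all genes. The 4 shifts of a gene sum to 0, so these counts are not independent. Without replicate 1 the median shift on the array of replicate 4 was -0.037 and that on the array of replicate 3 was -0.010. The direction on the array of replicate 2 turned when the array of replicate 3 or 4 was left out. It had 17 of 36 members higher and a median shift of -0.005 without replicate 3, and 17 of 36 and -0.011 without replicate 4.

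By class, 16 of 21 SET-domain genes and 11 of 14 demethylase genes were higher on the array of replicate 1, where 52.2% of all genes were. Replicate 3 was lower in 20 of 21 SET-domain genes and in 7 of 14 demethylase genes, with 47.7% of all genes. Without replicate 1, 21 members were lower and 15 higher on that array. It is also the array that stood apart in Xist, and the part of that difference was not tested. The 5 largest upward shifts on the array of replicate 1 were those of Kmt2a (0.45), Setdb2 (0.33), Kmt2d (0.33), Nsd2 (0.31) and Kmt5b (0.28). Downward shifts there beyond 0.10 were those of Nsdhl (-0.31), Kdm8 (-0.20), Setd6 (-0.11) and Kdm1a (-0.10).

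**Figure D4:**
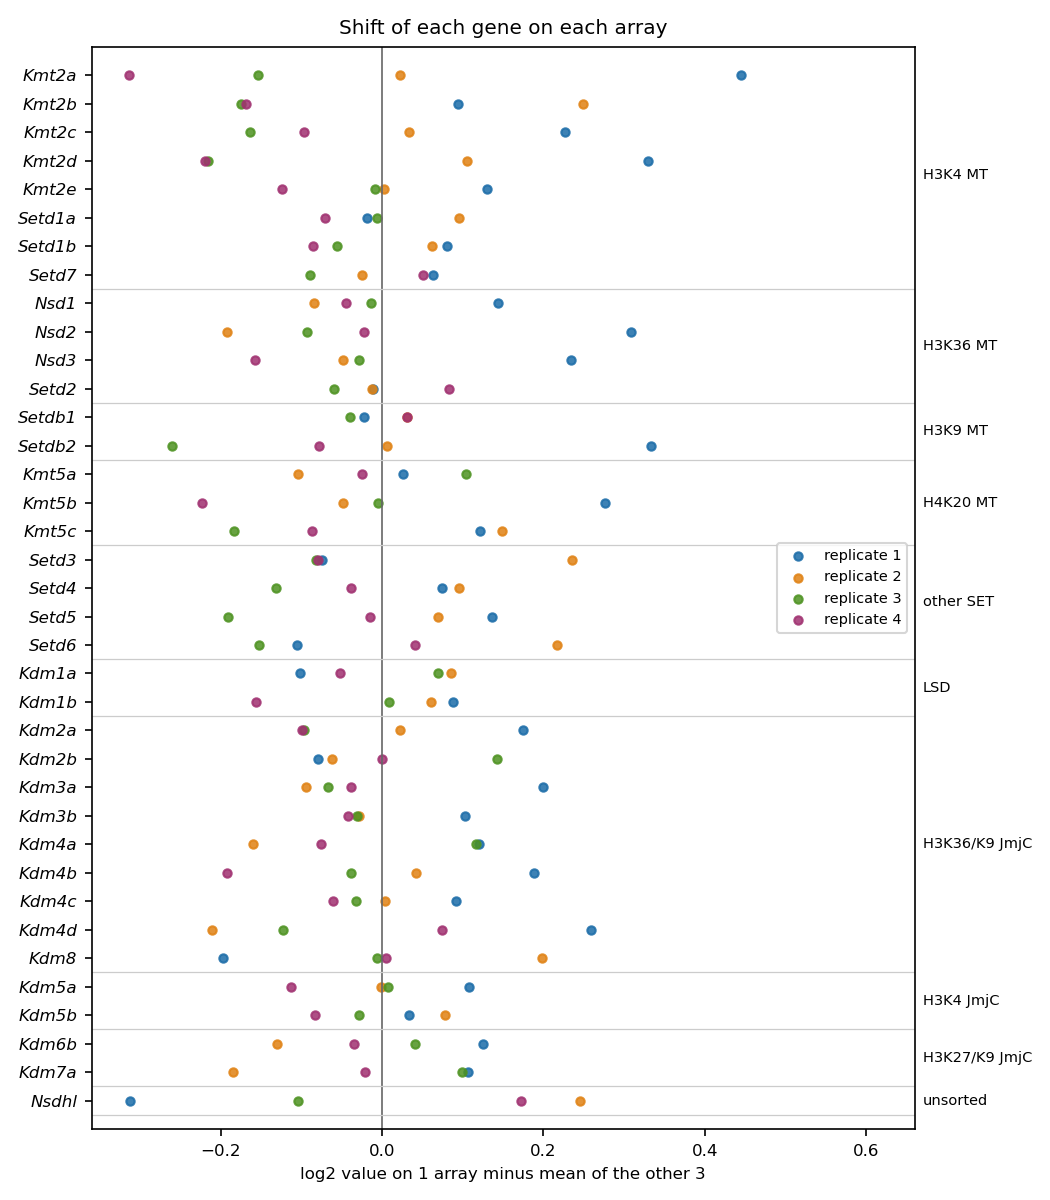
Log2 value on 1 array minus the mean of the other 3 (horizontal axis) for each of the 37 genes (rows, grouped by role, with MT for methyltransferase), with the arrays of replicates 1 to 4 in colour. The points of replicate 1 lie mostly right of 0, with Kmt2a furthest at 0.45, and those of replicate 4 mostly left of it.

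Other genes moved with these arrays. The early B-cell markers had median shifts of 0.92, -0.28, 0.13 and -0.67 on the arrays of replicates 1 to 4, with 11 of 11 higher on that of replicate 1 and 10 of 11 lower on that of replicate 4. For markers of pre-B and immature B cells they were 0.63, -0.01, 0.06 and -0.74. Those of the erythroid markers were -1.31, 0.71, 0.41 and 0.33, with 9 of 9 lower on the array of replicate 1, and those of the granulocyte and monocyte markers -0.14, -0.20, 0.20 and 0.23. The megakaryocyte markers had 0.31, 0.47, -0.04 and -0.58, with 4 of 4 lower on the array of replicate 4. These have the sign of the members' median shift on each array, but the members' direction on that of replicate 2 was not settled. The cell-cycle list lay between -0.05 and 0.04 and the housekeeping list between -0.04 and 0.03. The part of these marker shifts in those of the methyltransferase and demethylase genes was not tested.

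A partner list of 42 genes was also followed, of which 39 had a probe set of their own. It holds genes that work with the members and other methyltransferases and demethylases without the symbol prefixes. Above background were 39 of 39, where 63.5% of all genes were. The subunits of the COMPASS and MLL complexes, which hold the H3K4 methyltransferases, had a median SD of 0.075 (12 genes). The largest SD among them was that of Pagr1a, which read 9.99, 9.79, 10.34 and 9.87 (SD 0.25, n = 4), with replicate 3 the highest. On the array of replicate 1, 7 of 8 H3K4 methyltransferase genes were higher, with a median shift of 0.11, against 4 of 12 of these subunits with a median shift of -0.01. The difference was not tested. Wdr5, the scaffold of these complexes, had values of 10.05, 10.20, 10.13 and 10.14 (SD 0.06, n = 4). Men1, which encodes the menin partner of MLL1, had values of 9.82, 9.79, 9.74 and 9.48 (SD 0.15, n = 4). Wdr5 was lowest on the array of replicate 1, while Men1 was highest there. Of all 39 partners, 19 were higher on the array of replicate 1, where 52.2% of all genes were.

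Among the partners of LSD1, Gfi1b, a transcription repressor of erythroid and megakaryocyte cells that recruits it, read 9.50, 10.78, 10.49 and 10.56. It was the 1 partner with an unadjusted p under 0.05 (unadjusted p = 0.00270 and adjusted p = 0.450 in limma's F test across all genes). Its value on the array of replicate 1 was the lowest, beside the erythroid marker shift of -1.31 there, and its part was not tested. Kdm1a itself differed by -0.10 on that array. Other enzymes without the symbol prefixes had a median SD of 0.13 (12 genes). On the array of replicate 1, 8 of these 12 were higher (median shift 0.09), where 52.2% of all genes were. On that of replicate 4, 10 of 12 were lower (median shift -0.13), with 54.5% of all genes. Replicate 3 was lower in 6 of 12, with 47.7% of all genes. Among these enzymes Phf2, a JmjC protein related to Kdm7a, read 10.62, 10.47, 10.32 and 10.18, in the same order of arrays as Kmt2a.

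**Figure D5:**
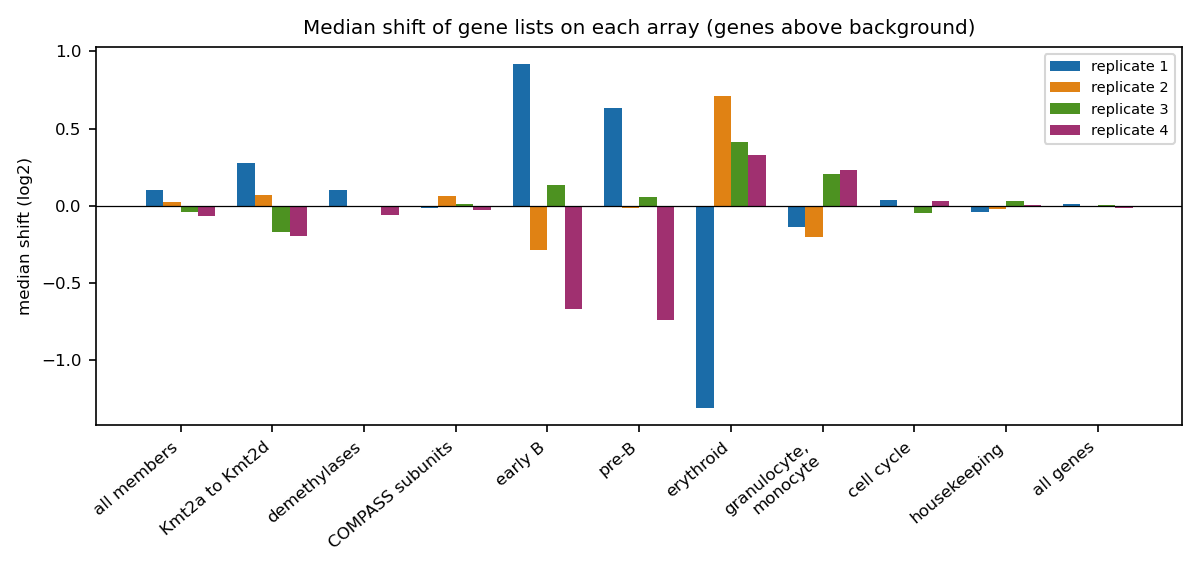
Median shift (vertical axis, log2 value on 1 array minus the mean of the other 3) of gene lists above background (horizontal axis), with bars for the arrays of replicates 1 to 4. The member bars lie between -0.07 and 0.10, while the early B-cell bar of replicate 1 lies at 0.92 and the erythroid bar at -1.31.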

How the data were processed

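RNA of 4 wild-type pro-B cell samples was hybridized to Affymetrix Mouse Gene 1.0 ST arrays. The deposited values are log2 intensities, for which the authors name RMA for background correction and normalization. The methods also name a filter on low-expression probe sets. Its threshold, the set of arrays normalized jointly and the genome build were not stated in what was read here. Columns were matched by sample name, and 0 were left without a sample.

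Gene names came from the annotation of the platform, which lists 1 symbol for 21640 probe sets, several for 1321 and none for 11799. Where a gene has several probe sets, the one of highest mean was used. All 37 member genes matched the RefSeq table by gene identifier. The members and lists were chosen with earlier results of these data known. Every member is accounted for, and values on every array are given for members below background, those with 1 array apart from the rest, and the 2 with the largest SD in each role group. Values of other members and of partners were chosen after they were seen.

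Variance over arrays was tested with limma 3.58.1 in R 4.3.3 (fitFDist with mean level as covariate, one-sided F test with 3 numerator degrees of freedom, prior degrees of freedom 4.39, Benjamini-Hochberg over 12658 genes). On simulated data over 12658 genes, with 50 genes shifted on 1 array at each size, the unadjusted test found 15 of 50 at a shift of 0.5 and 48 of 50 at 1, and the adjusted test called 0 of 50 even at a shift of 3. The shifted genes entered the fit, which recovered prior degrees of freedom of 3.31 where 4.39 was simulated. The simulated test was thus stricter than the one applied, with 3.28% of unshifted genes at an unadjusted p under 0.05 in limma's F test. Promoter windows were read with Python 3.11.15. Alternatives were other background lines, passing on 3 of 4 arrays, limma's one-sided test of the margin, quantile and cyclic loess normalization, other priors, the range, all probe sets, no filter, and leaving out each replicate. Arrays carry no read depth, and their number limits the precision.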

Additional observations from a re-analysis of the deposited data

Results flagged for a closer look

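Of the 36 members above background, 2 had 1 array far from the others by Dixon's ratio, where 5.39% of all genes above background did and chance gives about 1 in 20. Setd3 stood at 10.146 on the array of replicate 2, against a mean of 9.91 on the others. Its other probe set was also highest there. Kdm3b stood at 11.033 on the array of replicate 1, against a mean of 10.93 on the others, a difference of 0.10 on the log2 scale.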

How the results depend on the processing

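No paired analysis was possible because the series has a single group. The count of members above background was 35 to 36 under all alternatives run, the lower value with the array median as the line, and 36 whenever a replicate was left out. That of partners was 39 throughout. Leaving out Nsdhl, an alternative chosen after seeing the data, gave 35 genes above background and a median SD of 0.097. The variance test called 0 members under every prior, normalization and filter tried and without each replicate, but it called 0 or 3 of all genes too, so this says nothing about stability. At an unadjusted p under 0.05 in limma's F test, 1 of 36 members passed without replicate 2, with 5.14% of all genes. Without replicate 3 it was also 1 of 36, with 5.23% of all genes. The median SD of the members lay between 0.077 and 0.100 with a replicate left out, the lowest without replicate 1, and 0.092 to 0.104 under the other alternatives. The median shift on the array of replicate 1 was 0.094 to 0.117. On the array of replicate 2 it was 0.074 without replicate 1, -0.005 without replicate 3 and -0.011 without replicate 4, so its direction is not settled. On those of replicates 3 and 4 it was below 0 under all alternatives run, and on that of replicate 3 it was -0.072 without replicate 4. For these the cause was not tested. Signal over background limits what can be said of Setd4 and Kdm4d, which lie near the line.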
